A study of Mus musculus with 4 samples.

Results

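The genes described here encode the proteins of the cytosolic ribosome and of the mitochondrial ribosome. They were chosen by symbol. Every gene in either peak list whose symbol began with Rpl, Rps, Mrpl or Mrps followed by a digit was taken, except the Rps6k kinases. This gave 83 of 9650 genes with a peak, 22 for the cytosolic and 61 for the mitochondrial ribosome. They carried 87 of 14693 peaks in the HKO list and 82 of 14057 peaks in the FF list.

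The study mapped N6-methyladenosine (m6A) in mouse liver RNA by immunoprecipitation of RNA fragments with an antibody against m6A, followed by sequencing. The HKO group is liver of Alkbh5-HKO mice, and the labels do not spell out HKO, name a Cre driver or say which part of the gene is deleted. The FF group is liver of Alkbh5flox/flox mice. Mice of both groups were aged 9 weeks and fed normal chow, and RNA of 3 mice (300 μg) was pooled per genotype. Each genotype thus had 1 pool, with 1 immunoprecipitated (IP) and 1 input library, so there was no replicate, and no test between genotypes was made. A peak is a stretch of exon with more IP than input reads, called by the authors at a q-value of 0.05 in each genotype separately. The fold, the IP over input ratio, and the log10 q of each peak are the authors' own values, and a fold in HKO set beside one in FF rests on a different IP reaction, so the pair gives no direction of change. Ranges after a percent are 95% Wilson intervals, which reflect the number of genes or peaks counted and nothing else. The lists hold no read totals, so depth is unknown, and a gene without a peak may still be methylated.

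The cytosolic ribosome translates nuclear mRNAs, while the mitochondrial ribosome translates the few proteins encoded by mitochondrial DNA, all of them subunits of the respiratory chain and ATP synthase. Both sets of ribosomal proteins are encoded in the nucleus. Cytosolic ribosomal protein mRNAs are short, abundant and stable, and most begin with a run of pyrimidines, the terminal oligopyrimidine tract, through which mTORC1 and LARP1 control their translation. m6A is placed on mRNA by the METTL3 and METTL14 methyltransferase, often in long internal exons and near the stop codon, and ALKBH5 is one of the enzymes that remove it.

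The labelled tissue was checked against marker genes. All 10 hepatocyte markers had a peak, 9 of them in HKO and 8 in FF, with Alb missing from the HKO list and Ttr and Cps1 missing from the FF list. Over all protein-coding genes 40.8% had a peak, 36.6% in HKO and 35.7% in FF. Markers of other liver cells also had peaks, 4 of 6 for Kupffer cells, 3 of 6 for endothelium, 4 of 5 for stellate cells and 2 of 4 for cholangiocytes. The libraries come from whole tissue, so fewer cells of a type and less RNA per cell cannot be told apart.

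The annotated starts of some members are shown first, because pyrimidine runs are the known hallmark of cytosolic ribosomal protein genes and because FF peaks without an HKO counterpart on mitochondrial members lay mostly at starts. Each line gives 15 bases before and 15 bases from the annotated start, 5′ to 3′, from RefSeq on GRCm38.p6. Capitals mark the longest run of C and T that touches the 5 bases on either side of the start.
Rps6, minus strand, chr4:86857353-86857382: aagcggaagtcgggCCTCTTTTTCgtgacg
Rpl13a, minus strand, chr7:45128731-45128760: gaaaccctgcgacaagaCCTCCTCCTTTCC
Rpl34, minus strand, chr3:130730384-130730413: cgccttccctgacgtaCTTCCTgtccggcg
Mrpl37, minus strand, chr4:107066852-107066881: gcgctccgCCCCTTTggctcccagcagtcc
Mrps18a, plus strand, chr17:46110989-46111018: agtgcacacgcggTCaggtgcgttccaaga
Mrps18c, plus strand, chr5:100798744-100798773: gaaaggaagaggaagggCggagaaccatgg
Among the cytosolic members shown, Rps6 has a run of 10 bases, Rpl34 one of 6, and Rpl13a one of 14 that goes on past the printed window. Mrpl37, Mrps18a and Mrps18c are mitochondrial members with an m6A peak whose 5′ limit is the annotated start itself, so the last 15 bases of each line lie inside the peak. The runs of Mrpl37 (7 bases) and Mrps18a (2 bases) lie wholly before the start and so outside the peak. The run of Mrps18c (1 base) lies after the start.

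Over all cytosolic ribosomal protein genes with a start sequence, 19 of 54 (35.2%) began with C, against 11 of 69 (15.9%) of mitochondrial ones and 13.7% of the 17492 protein-coding genes of the table. A pyrimidine run of 5 or more bases, marked by the same rule, was present in 55.6% of cytosolic, 37.7% of mitochondrial and 31.3% of all genes. By this rule a run can lie wholly before the start, outside the annotated transcript. Among cytosolic genes such a run was present in 6 of 10 with an m6A peak and in 24 of 44 without one. The letters GGAC, a common form of the m6A motif, were searched on the sense strand only and occurred in the first 50 bases of 5 cytosolic genes (9.26%), 20 mitochondrial genes (29.0%) and 20% of all genes. A match is a description of letters and not a methylated site, and introns inside these 50 bases were not removed.

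The ribosomes differed in how many of their genes carried any peak. RefSeq lists 78 protein-coding genes with a mitochondrial ribosomal protein symbol, and 61 of them (78.2%, 67.8 to 85.9) had a peak in at least 1 list. Of 73 cytosolic ribosomal protein genes, without paralogues, retrogenes and pseudogenes, 13 (17.8%, 10.7 to 28.1) had one. Over all protein-coding genes the share was 40.8% (40.2 to 41.5). The intervals for the mitochondrial and the cytosolic genes lie on opposite sides of that value and do not overlap it. Ribosomal protein genes are short, with a median span of 7690 bp (mitochondrial) and 3164 bp (cytosolic) against 17146 bp over all. Among other genes within the middle 50% of the mitochondrial spans, 39.0% (37.7 to 40.4) had a peak, and within that of the cytosolic spans 31.9% (29.6 to 34.2).

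**Figure D1:**
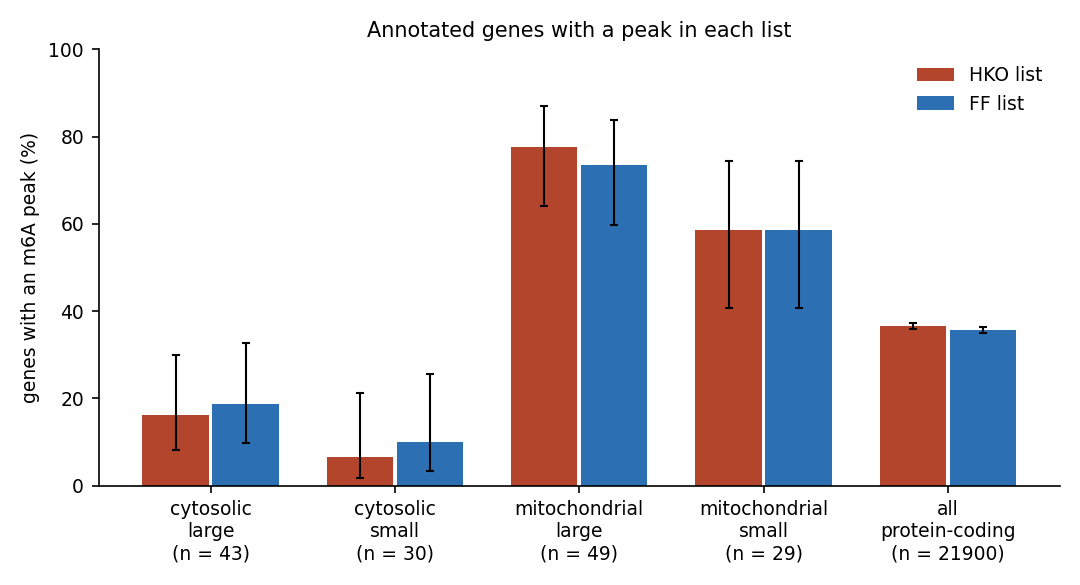
Share of RefSeq protein-coding genes with at least 1 m6A peak (y axis, percent) in the HKO list (left bar of each pair) and the FF list (right bar), by ribosome and subunit as given by the gene symbol. Lines are 95% Wilson intervals for counting error; mitochondrial genes stand above all protein-coding genes and cytosolic genes below them in both lists.

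The order was the same in each list and in each subunit, as the plot of annotated genes with a peak shows. Of the large-subunit mitochondrial genes, 38 of 49 had a peak in HKO 36 of 49 in FF, and of the small-subunit genes 17 of 29 in each list. For the cytosolic ribosome the numbers were 7 and 8 of 43 large-subunit genes and 2 and 3 of 30 small-subunit genes, HKO and FF. Subunits follow the symbol here, although the proteins of Mrps18a and Mrps30 are known to sit in the large mitochondrial subunit. The 17 mitochondrial genes without a peak were Mrpl1, Mrpl21, Mrpl22, Mrpl23, Mrpl30, Mrpl35, Mrpl40, Mrpl47, Mrps9, Mrps10, Mrps14, Mrps16, Mrps18b, Mrps21, Mrps22, Mrps23 and Mrps36. The 60 cytosolic genes without one included Rps2, Rpl3, Rpl5, Rpl8 and Rpl11. Many cytosolic ribosomal protein genes have processed pseudogenes in the genome, and the sources used here do not say how reads with several matches were treated. The part of such reads in the low cytosolic count was not tested.

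Ribosomal proteins whose symbols the rule does not match were counted apart. All 5 further mitochondrial ones had a peak. Ptcd3 (top fold 17 in the HKO list and 8.88 in the FF list), Aurkaip1 (14.4 and 20.4), Chchd1 (6.97 and 3.32) and Gadd45gip1 (14.4 and 5.6) were in both lists, and Dap3, the GTP-binding protein of the small subunit, was in the FF list alone (15.7). Among further cytosolic ones, Rpsa was in the FF list alone (2.29), and Rplp0, Rplp1, Rplp2 and Fau had no peak.

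Genes that build or regulate ribosomes were counted beside all genes. Over all protein-coding genes 40.8% had a peak, and of all genes with a peak 75.6% were in both lists, 13.2% in HKO alone and 11.2% in FF alone. Of 68 ribosome biogenesis factors, 50 had a peak, 46 in both lists, 3 in the HKO list alone (Tsr1, Nle1 and Riok1) and 1 in the FF list alone (Nop10). Of 36 genes for mitochondrial ribosome assembly and mitochondrial translation, 28 had a peak, 27 in both lists and 1 in the HKO list alone. That gene was the rRNA methyltransferase gene Nsun4 (fold 3.56, log10 q -3.56). Of 16 genes for mTORC1 signalling and binding of terminal oligopyrimidine mRNAs, 13 had a peak, 9 in both lists. Larp1, the main repressor of these mRNAs, had 4 HKO peaks and 3 FF peaks, with top folds of 17.7 and 11.4. Mtor, Cnbp and Pabpc1 were in the HKO list alone, and Rheb in the FF list alone.

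Mitochondrial ribosomal protein genes mostly had a peak in both genotypes. Of the 61, 47 (77.0%, 65.1 to 85.8) had a peak in both lists, 8 in HKO alone and 6 in FF alone. Over all 9650 genes with a peak, 75.6% were in both lists, 13.2% in HKO alone and 11.2% in FF alone, so the mitochondrial shares of 13.1% and 9.84% lay close to the background. Peak by peak, 14 of 68 HKO peaks (20.6%, 12.7 to 31.6) overlapped no FF peak, against 28.5% of all HKO peaks, and 10 of 64 FF peaks (15.6%, 8.71 to 26.4) overlapped no HKO peak, against 25.2% of all FF peaks. Both background values lie within those intervals.

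The 54 pairs of overlapping mitochondrial peaks often shared an edge. The 3′ limit was the same base in 27 pairs (50%, against 26.5% of all 10104 pairs), and 7 pairs had both limits in common (13.0%, against 6.87%). Pairs centred within 1000 bp of the gene end shared the 3′ limit more often in general. It was the same base in 34.3% of all 3007 such pairs and in 18 of the 31 mitochondrial ones (58.1%). An exon peak that reaches the annotated gene end must stop there. Both peaks did so for Mrpl12, Mrpl14, Mrpl28, Mrpl52, Mrpl53, Mrpl54, Mrps11, Mrps26, Mrps28, Mrps34 and the Mrpl9 pair nearer the gene end. Their common 3′ limit is thus set by the annotation. The part of such pairs in the difference from all pairs was not tested. The median peak covered 292.5 exonic bases in the HKO list and 297.5 in the FF list, against 269 and 241 over all peaks.

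Mrpl12, whose protein forms the flexible stalk of the large subunit and also binds the mitochondrial RNA polymerase, had the peak of smallest p of the mitochondrial set in each list. The peak lay on chromosome 11 from 120488226 to 120488754 in both lists, with a fold of 8.16 in the HKO list and 11.5 in the FF list. Its log10 p was -1130 in the HKO list and -1460 in the FF list, and its q was below the smallest number the files hold. Mrps7, a protein of the small-subunit head, followed in both lists with a peak that ended at base 115607651 of chromosome 11, with folds of 14.6 (HKO) and 10.4 (FF). Both genes thus had peaks of nearly the same place and size in the 2 genotypes.

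Mrpl41, a protein of the large subunit, was among the 5 peaks of smallest p in each list and had folds of 24.5 (HKO) and 14.7 (FF), the fifth highest of the mitochondrial set in each list. Mrpl57 had folds of 8.44 (HKO) and 12.1 (FF), and Mrps24 folds of 6.89 (HKO) and 3.55 (FF). Mrpl43 had folds of 5.29 (HKO) and 7.88 (FF), and its peaks also overlap the span of Twnk, the mitochondrial DNA helicase gene. The peak of Mrpl57 in the FF list likewise overlaps Ska3. Because the sources disagree on the library kit, it is not settled whether reads kept their strand, and reads of overlapping genes may not be separated.

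The 4 highest mitochondrial folds of the HKO list belonged to internal peaks. Mrpl15, a large-subunit protein gene, had a peak from 4781395 to 4782202 on chromosome 1 with a fold of 71.3 in the HKO list, and an overlapping one from 4781425 to 4782142 with a fold of 13.8 in the FF list. Mrps2, a small-subunit protein gene, had a fold of 62.4 in the HKO list (28469485 to 28469930 on chromosome 2) and 10.7 in the FF list (28469515 to 28469960). In both genes the FF peak covers nearly the same bases as the HKO peak. Mrpl19 had folds of 30.5 (HKO) and 13.3 (FF) from base 81961737 of chromosome 6. Mrpl3, whose protein lies near the peptidyl transferase centre, had folds of 30.5 (HKO) and 4.39 (FF) from base 105075627 of chromosome 9.

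In the FF list the highest mitochondrial folds were those of Mrps28, Mrpl46, Mrps31, Mrps25 and Mrpl41. Mrps28 had a fold of 5.58 in the HKO list and 25.1 in the FF list, for a peak made of 2 exon blocks far apart, of which the outer one ends at the gene end. Mrpl46 had 12.6 (HKO) and 19.6 (FF), and Mrps25 had 10.7 (HKO) and 14.9 (FF). Mrps31 had a peak in the FF list only. Of these 5, Mrps28, Mrpl46 and Mrps25 thus had the higher fold in FF and Mrpl41 in HKO.

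Over the 54 pairs, the HKO fold was above the FF fold in 35 (64.8%, 51.5 to 76.2), against 59.6% of all pairs. It was at least 2 times the FF fold in 17 (31.5%), against 28.2% of all pairs, and the FF fold was at least 2 times the HKO fold in 2 (3.70%, Mrps28 and Mrpl11), against 14.9% of all pairs. The median ratio of HKO over FF was 1.33 (interquartile range 0.887 to 2.50), and 1.22 over all pairs. Among all 3007 pairs centred within 1000 bp of the gene end, the HKO fold was the higher in 65.6% and at least 2 times the FF fold in 32.0%. The reverse factor of 2 was seen in 9.38% of them, and their median ratio was 1.36. For the 31 mitochondrial pairs placed there, the same values were 61.3%, 19.4%, 3.23% and 1.23. Other mitochondrial genes with ratios above 4, singled out after their values were seen, were Mrpl27 (19.2 in the HKO list and 2.88 in the FF list), Mrps35 (20.6 and 3.96), Mrpl18 (13.3 and 2.92), Mrps5 (10.7 and 2.35) and Mrpl51 (19.3 and 4.32). Since all pairs also lean to the HKO list, and the enrichment of the 2 IP reactions cannot be compared from these files, the ratios are a description of the lists.

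**Figure D2:**
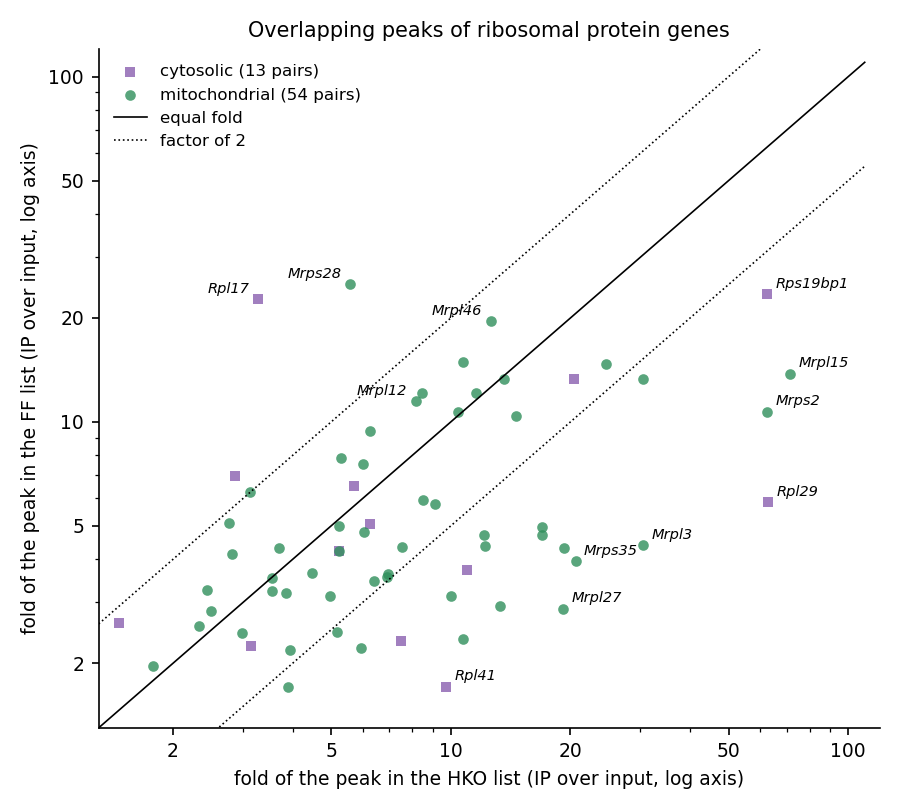
Fold (IP over input) of each overlapping peak pair of a ribosomal protein gene, in the HKO list (x axis) and the FF list (y axis), both on log axes. Squares are cytosolic and circles mitochondrial genes, the solid line marks equal folds and the dotted lines a factor of 2; Mrpl15, Mrps2, Rpl29 and Rps19bp1 lie far right, Mrps28 and Rpl17 far above the line.

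As a class the mitochondrial peaks had modest folds and small q-values. The median fold was 6.20 in the HKO list (interquartile range 3.77 to 11.7) and 4.35 in the FF list (3.14 to 10.5), against 10.4 and 8.80 over all peaks. The median log10 q was -30.8 in the HKO list and -28.95 in the FF list, against -8.70 and -7.79. The range of folds ran from 1.78 to 71.3 in the HKO list and from 1.71 to 25.1 in the FF list. The read counts behind these peaks are not in the lists.

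Mitochondrial peaks lay at the gene end more often than peaks in general. Of the HKO peaks, 43 of 68 (63.2%, 51.4 to 73.7) had their centre no more than 1000 bp from the annotated gene end, against 30.9% of all HKO peaks. Of the FF peaks, 32 of 64 (50%, 38.1 to 61.9) were, against 26.5% of all FF peaks. In other genes of like span the shares were 41.3% in the HKO list and 33.8% in the FF list, below both intervals. Mrpl34 and Mrpl53 span less than 1000 bp, so their peaks count at the end in any case. The 3′ limit of the peak lay within 30 bp of the gene end in 24 HKO peaks (35.3%, 25 to 47.2) and 17 FF peaks (26.6%, 17.3 to 38.5), while in other genes of like span it did in 13.6% of HKO and 9.83% of FF peaks. Whether these peaks lie in coding sequence or in the 3′ untranslated region was not analysed here, as only gene spans were used.

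The list-specific mitochondrial peaks were split by place. Of the 14 HKO peaks without an FF counterpart, 12 were centred within 1000 bp of the gene end and 0 within 500 bp of the gene start, while over all HKO-specific peaks the shares were 33.6% at the end and 4.71% at the start. Of the 10 FF peaks without an HKO counterpart, 8 were centred within 500 bp of the gene start and 1 within 1000 bp of the gene end, while over all FF-specific peaks the shares were 34.7% at the start and 17.0% at the end. The lean of FF-specific peaks to starts is thus present over all genes of these lists, which include the ones described here, and the ribosomal peaks are not independent evidence of it.

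**Figure D3:**
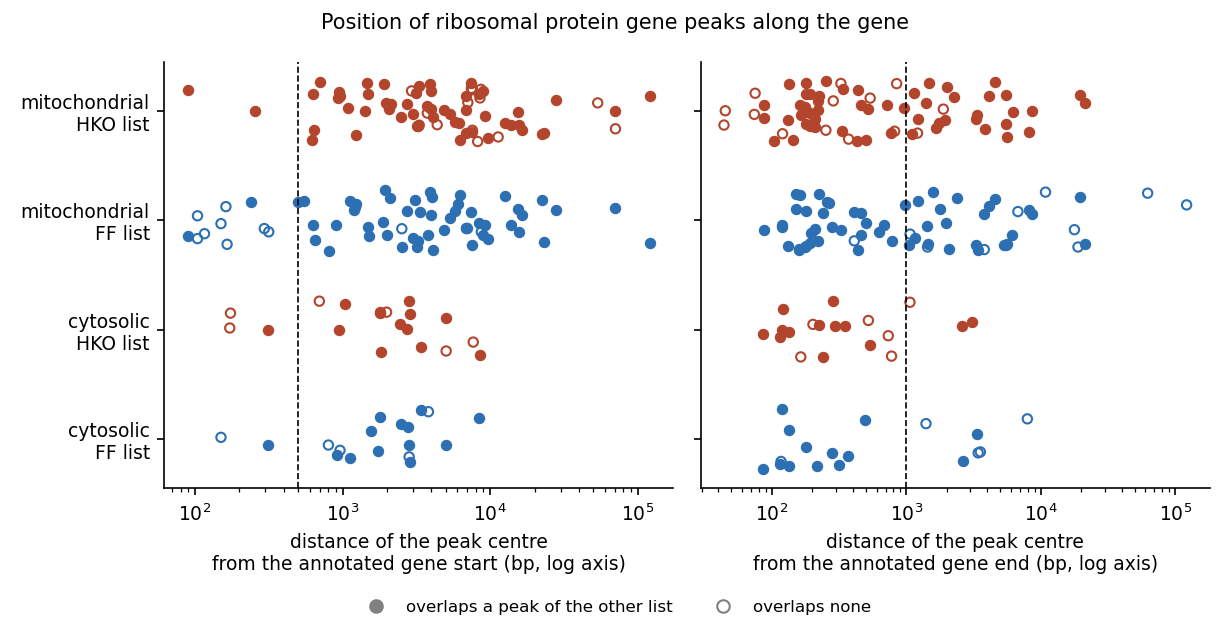
Distance of each peak centre from the annotated gene start (left panel) and gene end (right panel), in bp on log axes, for mitochondrial and cytosolic ribosomal protein genes in the HKO list (red) and the FF list (blue). Filled points overlap a peak of the other list, open points do not, and dashed lines mark 500 bp and 1000 bp; open blue mitochondrial points gather left of the line in the left panel and open red ones left of the line in the right panel.

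The start-centred mitochondrial peaks can be listed in full. The HKO list held 2 of them (2.94% of 68 peaks, 0.810 to 10.1, against 7.38% of all HKO peaks), on Mrpl11 and Mrps18c. The FF list held 11 (17.2% of 64, 9.88 to 28.2, against 15.0% of all FF peaks), on Mrpl2, Mrpl11, Mrpl37, Mrpl38, Mrpl48, Mrpl57, Mrps18a, Mrps18c, Mrps28, Mrps31 and Mrps34. With a window of 200 bp in place of 500 bp the shares were 1.47% in HKO and 10.9% in FF. In 5 of the 11 the 5′ limit of the peak was the annotated start base, and in 7 it lay within 30 bp of it. Folds in the FF list ran from 2.49 (Mrpl48) to 16.4 (Mrps31) with a median of 5.74. The peaks of Mrpl37, Mrpl48, Mrpl57 and Mrps18a also overlap a neighbouring gene, namely Cyb5rl, Rab6a, Ska3 and Rsph9, so that reads of either gene may have made them.

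Mrps18c and Mrpl11 were the mitochondrial genes with a start peak in both lists. The Mrps18c peak ran from 100798759 to 100801921 on chromosome 5 over 3 exon blocks in both lists, from the start base onward, with folds of 5.24 (HKO) and 5 (FF). Its protein is one of the 3 mammalian relatives of the bacterial S18 protein. Mrpl11, part of the stalk base, had folds of 3.13 (HKO) and 6.27 (FF) for peaks that ended at the same base, 4962482 of chromosome 19. Of the other start peaks, that of Mrpl57 lay at the border of the window. Its FF peak was centred 498 bp from the start and its overlapping HKO peak 617 bp, so that it counts as a start peak in the FF list only by the choice of 500 bp.

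Of the 6 mitochondrial genes in the FF list alone, 5 had their peak at the start. Mrpl37 had a peak on chromosome 4 from 107066567 to 107066866 (fold 11, log10 q -33.8), and Mrps18a one on chromosome 17 from 46111004 to 46122774 over 3 exon blocks (11.4, -16.6). Mrpl2, which lies near the peptidyl transferase centre, had 2 peaks, one at the start (5.74, -10.7) and one at the middle of the gene (2.83, -8.94). Mrps31 (16.4, -3.39) and Mrpl48 (2.49, -3.50) had weaker support by q. Mrps33 (14.1, -2.75) was the exception in place, since its peak was centred 410 bp from the gene end. The peaks of Mrps31, Mrpl48 and Mrps33 are lost at a q of 1e-05 or less, and those of the other 3 genes remain.

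Peaks of the 8 mitochondrial genes found in HKO alone lay at the gene end in 7 of them. Mrpl58 had the smallest q, with a peak on chromosome 11 from 115410641 to 115410940 (fold 6.15, log10 q -61.7) centred 1884 bp from the gene end. Its protein is a peptidyl-tRNA hydrolase that became part of the large subunit. Mrpl4 followed, with a peak on chromosome 9 from 21008601 to 21008839 (9.81, -27.6) that reached the gene end. Mrpl33 (3.79, -15.2), Mrps6 (4.61, -12.3), Mrps15 (3.14, -7.46), Mrps17 (2.51, -6.75) and Mrpl10 (3.45, -5.23), the last an anchor of the stalk, were centred between 44 and 326 bp from the gene end. Mrpl49 had 2 weak peaks (2.00, -2.16, and 2.18, -3.89) centred 372 and 818 bp from the end. The peak of Mrpl33 overlaps the predicted gene Gm38424.

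Genes with peaks in both lists carried the remaining list-specific peaks. Mrpl15 and Mrpl50 were the members with 3 peaks in a list, and both had them in HKO, against 2 each in FF. Mrpl15 had the peak of fold 71.3 and 2 further ones with folds of 10 and 4.03 in the HKO list, against 13.8 and 3.14 in the FF list. The peak of fold 4.03, from 4774364 to 4774453, had a log10 q of -1.69, close to the threshold. Mrpl50 had folds of 17, 2.44 and 2.30 in the HKO list, against 4.97 and 3.26 in the FF list, and the HKO peak of fold 2.30 was centred 252 bp from the gene end.

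Further HKO peaks without an FF counterpart lay on Mrps2 (fold 7.35), Mrps27 (7.78, reaching the gene end) and Mrpl19 (12.7, log10 q -2.36, in a stretch that overlaps Gcfc2). In the other direction, Mrpl38, Mrps28 and Mrps34 had an FF peak at the start that no HKO peak overlapped, with folds of 2.91, 3.37 and 2.70, beside a peak at the gene end in both lists. For Mrps34 the end peak had folds of 6.01 (HKO) and 7.56 (FF), and it was among the 5 of smallest p in the FF list. These 3 genes therefore had an overlapping end peak in both lists and a start peak in FF. They were singled out after their values were seen.

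**Figure D4:**
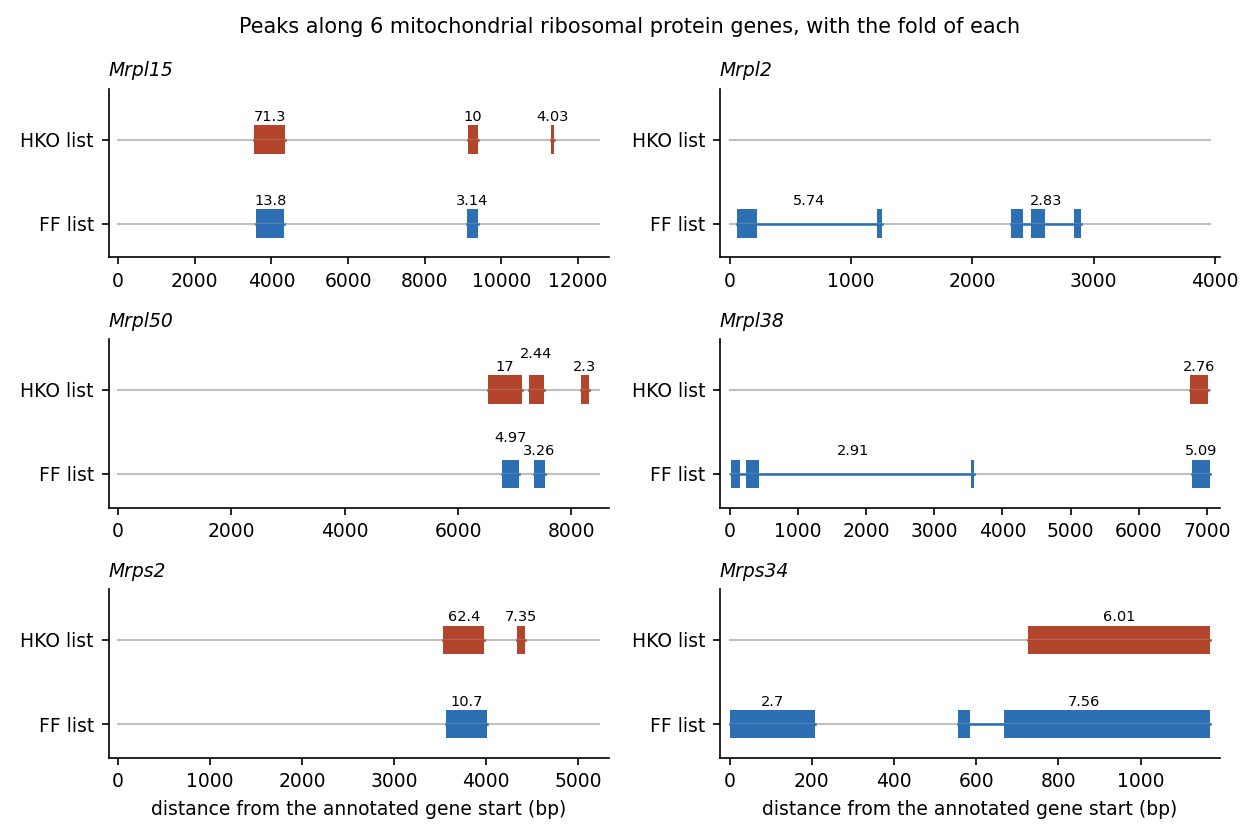
Peaks along 6 mitochondrial ribosomal protein genes, drawn as exon blocks joined by a line, in bp from the annotated gene start, with the HKO list above the FF list and the authors' fold over each peak. Mrpl15, Mrpl50 and Mrps2 have a further peak towards the gene end in HKO, while Mrpl2, Mrpl38 and Mrps34 have a peak at the start in FF.

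The cytosolic set was smaller and mixed. Of its 22 genes, 13 encode ribosomal proteins proper, 4 are paralogues (Rpl7l1, Rpl22l1, Rpl36al and Rps27l), 3 are pseudogenes (Rps6-ps4, Rps15a-ps4 and Rps19-ps3), 1 is a retrogene (Rps27rt), and Rps19bp1 encodes a binding partner of RPS19 that is no ribosomal protein. Across the 22, 13 were in both lists, 5 in HKO alone and 4 in FF alone. Of the 13 proteins proper, 7 were in both lists, 2 in HKO alone and 4 in FF alone. With so few genes, the Wilson interval for the share in both lists runs from 29.1 to 76.8% around 53.8% and spans the background of 75.6%. Peak by peak, 6 of 19 HKO peaks (31.6%) and 5 of 18 FF peaks (27.8%) had no counterpart, close to the 28.5% of all HKO and 25.2% of all FF peaks.

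Rpl29, Rpl41, Rpl26, Rpl4 and Rps6 carried peaks at the gene end in both lists. Rpl29, a small basic protein of the large subunit, had a peak on chromosome 9 from 106431123 to 106431568 with a fold of 62.8 in the HKO list, and from 106431212 to 106431568 with a fold of 5.85 in the FF list. The ratio of 10.7 was the highest of all member pairs. Rpl41, the shortest ribosomal protein, had the smallest p of the cytosolic set in the HKO list, with a fold of 9.72 (log10 p -638), against 1.71 (log10 p -39.5) in the FF list. Both peaks started at base 128548110 of chromosome 10, the gene end. The HKO fold was thus the larger one for both genes, with the same 3′ limit.

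Rpl4, whose protein lines the exit tunnel, had the same peak in both lists, from 64178296 to 64178562 on chromosome 9, with folds of 3.14 (HKO) and 2.25 (FF). Rpl26 also had the same limits in both lists, with folds of 7.49 (HKO) and 2.32 (FF). Rps6, the substrate of the S6 kinases, had folds of 11 (HKO) and 3.72 (FF). Rpl13a had 1.46 (HKO) and 2.61 (FF), and Rpl17 had 3.27 (HKO) and 22.7 (FF). The log10 q of Rpl17 was -1.99 in the HKO list and -5.43 in the FF list, and its peaks were centred 2612 bp (HKO) and 2657 bp (FF) from the gene end. Rpl17 and Rpl13a were the 2 of the 7 shared proteins proper with a higher fold in the FF list.

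Of the cytosolic proteins proper in a single list, those described here had a larger q in HKO than in FF. Rps3 (fold 5.94, log10 q -1.60), a protein of the mRNA entry channel, was in the HKO list alone, centred 776 bp from the gene end. Rps9 had an FF peak on chromosome 7 from 3706664 to 3706897 that reached the gene end (2.66, -51.7). Rpl34 had one on chromosome 3 from 130730129 to 130730368, centred 150 bp from the gene start whose letters are printed above (15.1, -13.2). Rps19, the gene most often mutated in Diamond-Blackfan anaemia in humans, had 1 over 3 exon blocks (2.70, -9.03), and Rpl38, which mouse embryos need for translation of some Hox mRNAs, had a weaker one (9.01, -3.11). Rpl34 was the only cytosolic protein proper with a start peak, while 8 of 9 HKO peaks and 7 of 11 FF peaks of proteins proper were centred at the gene end.

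The paralogues were all in both lists. Rpl36al, a close copy of Rpl36a, had small p in both lists, with folds of 6.26 (HKO) and 5.07 (FF) and log10 q of -217 and -192. Rpl22l1 had the same peak in both lists with folds of 5.72 (HKO) and 6.51 (FF), and Rps27l, a target of p53, had folds of 2.87 (HKO) and 6.97 (FF). Rpl7l1 had a shared peak at the gene end with folds of 5.23 (HKO) and 4.22 (FF). It also had a peak without counterpart in each list, at 1064 bp from the gene end in HKO (4.75, log10 q -3.57) and 802 bp from the start in FF (7.99, -14.1). Reads of a paralogue may come from its partner gene, so these assignments are uncertain.

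Rps19bp1, which encodes a regulator of the deacetylase SIRT1 that also binds RPS19, had the strongest support of the non-ribosomal members. Its peak on chromosome 15 began at base 80260614, the gene end, in both lists, with folds of 62.6 (HKO) and 23.4 (FF) and log10 q of -291 and -249. Among the copies, Rps19-ps3 was in both lists with folds of 20.4 (HKO) and 13.3 (FF). Rps27rt (39.0, log10 q -30.9), Rps6-ps4 (33.1, -29.9) and Rps15a-ps4 (5.52, -1.41) were in the HKO list alone. Rps27rt lies within Osbpl10 and the peak of Rps6-ps4 overlaps 2600014E21Rik. Reads on the copies may come from the parent genes or from these neighbours. These copies are so short that a peak can count at both the gene start and the gene end, as it did for Rps15a-ps4, Rps19-ps3 and Rps27rt in HKO and for Rps19-ps3 in FF.

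Over all 22 cytosolic genes, 16 of 19 HKO peaks (84.2%, 62.4 to 94.5) and 12 of 18 FF peaks (66.7%, 43.7 to 83.7) had their centre no more than 1000 bp from the gene end. In other genes of like span, 45.5% of HKO and 39.4% of FF peaks did. Rps27rt, Rps19-ps3, Rps15a-ps4 and Rps6-ps4 span less than 1000 bp, so their peaks count there in any case. Among proteins proper the shares were 88.9% (56.5 to 98.0) in HKO and 63.6% (35.4 to 84.8) in FF. Their FF interval includes the 39.4%. The median fold was 5.94 in the HKO list (interquartile range 4.01 to 15.7) and 5.46 in the FF list (2.67 to 8.76), below the medians of 10.4 and 8.80 over all peaks, as for the mitochondrial genes. For ribosomal proteins proper alone, the medians were 5.94 over 9 HKO peaks and 2.7 over 11 FF peaks. Of 13 pairs, the HKO fold was above the FF fold in 9 and at least 2 times it in 5, and the reverse factor of 2 was seen in 2, Rpl17 and Rps27l. The median ratio was 1.40. With 13 pairs the interval for the share above (42.4 to 87.3%) includes the 59.6% of all pairs.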

How the data were processed

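m6A was mapped in mouse liver in 4 libraries, an IP and an input for HKO and for FF, each from 1 pool. The series design text states that the authors used exomePeak 2.16.0 with a q-value limit of 0.05. Build GRCm38.p6, BWA 0.7.12, fastp 0.19.11 and HOMER 4.9.1 appear in the submitters' processing notes. In the deposited lists the score column holds a p-value per peak. The log10 p and log10 q are separate deposited columns, each a score with no lower bound, listed at minus infinity on underflow, which among the members touched log10 q only. The fold is a ratio, IP over input, deposited by the authors. The design text names a Synaptic Systems antibody and a NEBNext kit, the sample protocols a Millipore antibody and a NuGEN kit, and this was not settled.

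Comparisons used matplotlib 3.10.9, numpy 2.4.6, Python 3.11.15, scipy 1.17.1 and pandas 2.3.3. Peaks were shared if their exon blocks overlapped by 1 bp or more on the same strand. Pairs are mutual best overlaps. Positions are distances of the centre of the exonic sequence from the ends of the RefSeq gene span on GRCm38.p6, counted from base 1. The overlap step was checked on simulated peaks. Alternatives were a q of 1e-05, a fold of 2, equal list lengths, other overlaps, other windows, 1 peak per gene, and no pseudogenes, paralogues or Rps19bp1.

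The members and lists were chosen with earlier results of these data known. Genes named with values were the 5 of highest fold and the 5 of smallest p per list and ribosome, those in a single list, those with 3 or more peaks, those with start peaks in both lists, and those that are not ribosomal proteins proper. Values of some members are not reported here, while counts include them.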

Additional observations from a re-analysis of the deposited data

How the results depend on the processing

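Of 104 values over 22 results and 9 alternatives, 96 stayed within 1.5 times (counts), inside the 95% interval (shares) or inside the interquartile range (medians) of the reported value, and 8, all cytosolic, did not. The mitochondrial set holds no pseudogene or paralogue, so leaving out pseudogenes, paralogues and Rps19bp1 could not change its values. Those unchanged values are counted among the 96. Inside these wide limits some shares and medians still differed by over 1.5 times. With a start window of 200 bp, start shares were 1.47% in HKO and 10.9% in FF (mitochondrial) and 10.5% and 5.56% (cytosolic). At a q of 1e-05 or less they were 1.72% in HKO for mitochondrial genes and 9.09% in HKO and 6.25% in FF for cytosolic genes, whose HKO median fold was 9.72. The cytosolic FF median fold was 2.7 without pseudogenes, paralogues and Rps19bp1. At a q of 1e-05 or less, cytosolic genes in the HKO list alone numbered 2 in place of 5, HKO peaks without an FF counterpart 2 in place of 6, and 100% in place of 84.2% of HKO peaks lay at the gene end. With both lists at the length of the shorter, 3 cytosolic genes were in the HKO list alone. Without pseudogenes, paralogues and Rps19bp1, 7 cytosolic genes were in both lists and 2 in the HKO list alone, and 2 HKO peaks had no counterpart, since fewer genes are counted. The share of HKO peaks at the start was 0% in place of 15.8%. Those start peaks were on Rps15a-ps4, Rps19-ps3 and Rps27rt, all left out here. The cause of the other shifts was not tested. No paired analysis was possible because there was 1 pool per genotype and no replicate number in the labels. Read totals are not in the lists, so the limit that depth sets on them is unknown.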
